A study of Bos taurus with 8 samples.

Results

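A2ML1, SPINK5, CSTB, CST3, CST6, SERPINB1, SERPINB5, SERPINB6 and SERPINB8 encode proteins of protease inhibitor families that are made in squamous epithelia. They were followed in the rumen papillae of 4 female Holstein cows, each sampled on an LC diet, with a low share of concentrate feed (40%), and on an HC diet, in which concentrate made up 70%. Cows 1 and 2 ate LC in period 1 and HC in period 2, and cows 3 and 4 ate HC in period 1 and LC in period 2. Papillae were taken from ruminally cannulated animals on day 21 of each period, 4 h after feeding, and the RNA of each sample was hybridised to 1 bovine oligonucleotide array, which gave 4 arrays per diet and 8 in all. The 4 arrays of a period shared 1 slide. Slide and period are therefore confounded and cannot be told apart.

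A member was included where the RefSeq accession of a probe, a short DNA sequence spotted on the array to capture a transcript, led to its symbol in the bovine gene table. By this rule 4 of the 9 genes had a probe, 1 each: A2ML1 (NM_001191301), SPINK5 (NM_001102102), CST3 (NM_174029) and SERPINB6 (NM_174789). No probe was matched to CSTB, CST6, SERPINB1, SERPINB5 or SERPINB8, and they are not analysed here. The gene table gives CSTB only as a synonym of 2 entries, and 1 of these, LOC512805, had a probe, whose values are given beside the members without being counted among them. These genes were 4 of the 7788 with a named probe, and their probes 4 of 21475. A2ML1 was chosen by its signal, which was among the brightest on the arrays, so its brightness is a description and no finding. Its mean signal ranked 73rd of the 21475 probes, that of SPINK5 94th, that of CST3 155th and that of SERPINB6 3855th. Brightness also depends on how well a probe binds, so these ranks do not order the amounts of transcript.

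The rumen is lined by a keratinised stratified squamous epithelium, whose cells move upward from a basal layer, cornify and are shed. Shedding depends on serine proteases such as the kallikreins and on cysteine proteases of the cathepsin family, which cut the junctions between cells and the proteins of the cornified layer, and protease inhibitors made in the same layers hold them back. A2ML1 is a secreted relative of alpha-2-macroglobulin that traps proteases of several classes after they cut its bait region. SPINK5 encodes LEKTI, a secreted serine protease inhibitor with many inhibitory domains whose loss in people causes the scaling skin disease Netherton syndrome. CST3 encodes cystatin C, a secreted inhibitor of cysteine cathepsins made by most cell types, and SERPINB6 encodes an intracellular serpin, an inhibitor that is consumed as it binds its serine protease. CSTB encodes a cystatin of the cytosol.

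Markers of squamous epithelium were looked at first, to check the tissue. Of the 17 markers matched to a probe, 16 were above background on all 8 arrays, among them KRT14, KRT15, KRT6A, IVL and DSP. TP63, a regulator of basal cells, was above background on none. The summed signal of the list ran from 789765 to 1054960 on LC and from 860204 to 1036220 on HC, and cow 3 had the lowest sum on both diets. Of the leukocyte markers 11 of 14 were above background on all arrays and ITGAM on none, and their summed signal was 11069.5 to 12522.1 on LC and 11009.1 to 12986.5 on HC. All 12 stroma and muscle markers were above background, with sums of 36549.2 to 43652.8 on LC and 35921.6 to 43426 on HC. The samples thus gave signal of epithelial and of other markers, and in such bulk RNA fewer cells of a type and less RNA per cell cannot be told apart. Between 76.9% and 81.2% of the probes on an array were above background, and the 4 members and LOC512805 were so on all 8. In the deposited table of normalized values, the columns of cows 1 and 2 followed each other's scanner output on both diets. The names of these cows are those of the scanner output here, and the exchange leaves the diet, the period and the pairing of arrays as they are.

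None of the 4 measured inhibitors met the study's thresholds for diet, and the intervals of all of them lay within 1.5-fold in either direction. The thresholds were a change of 1.5-fold or more together with P below 0.05 before adjustment, and 198 of the 21475 probes met them for diet, or 0.922%. Beside this background, 0 of 4 members is no result about them. The adjusted P of each member was 0.99953 (limma, Benjamini-Hochberg over all probes). On the whole array 0 probes, or 0%, had an adjusted P under 0.05 (limma), and 784, or 3.65%, had an unadjusted one under 0.05, none of them a member.

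A2ML1 had log2 signals of 16.75, 16.97, 16.87 and 16.88 in cows 1 to 4 on LC. The same cows had 16.98, 16.86, 16.84 and 16.82 on HC. The diets overlapped, and cow 1 alone was higher on HC. The mean was 16.86 ± 0.09 on LC and 16.87 ± 0.07 on HC (SD, n = 4 each). HC minus LC was 0.01 (SE 0.09), a ratio of 1.01 with a 95% interval from 0.862 to 1.18, and P was 0.919 by limma and 0.971 by an exact two-sided permutation test, whose smallest possible P is 0.0286. A change of 1.5-fold lies outside this interval.

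SPINK5 had log2 signals of 16.71, 16.30, 16.37 and 16.61 on LC in cows 1 to 4. On HC they were 16.37, 16.55, 16.29 and 16.72. Cows 2 and 4 were higher on HC and cows 1 and 3 lower, and the diets overlapped. HC minus LC was -0.01 (SE 0.15), a ratio of 0.992 with a 95% interval from 0.766 to 1.28 (limma P = 0.940, exact permutation P = 0.943).

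For CST3 the LC signals were 15.69, 15.65, 15.78 and 15.75 (log2, cows 1 to 4). The HC signals were 15.48, 15.53, 15.83 and 15.82. Cows 1 and 2 were lower on HC, by 0.22 and 0.12, whereas cows 3 and 4 were higher by 0.05 and 0.06, so the HC arrays enclosed the LC arrays on both sides. Over the 4 cows, HC minus LC was -0.06 (SE 0.08), with a ratio of 0.962 and a 95% interval from 0.842 to 1.10 (limma P = 0.506, exact permutation P = 0.571).

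SERPINB6 gave 10.23, 10.69, 10.60 and 10.40 on LC and 10.48, 10.86, 10.59 and 10.39 on HC, again in log2 units and in the order of cows 1 to 4. Cows 1 and 2 were higher on HC by 0.25 and 0.17, while each of cows 3 and 4 differed by -0.02. HC minus LC was 0.09 (SE 0.15), and the ratio of 1.07 had a 95% interval from 0.824 to 1.38 (limma P = 0.560, exact permutation P = 0.571). Within cows the exact permutation P for diet was 0.5 for CST3 and for SERPINB6.

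LOC512805, the entry with CSTB as a synonym, had signals of 15.07, 14.87, 14.71 and 15.23 on LC and of 15.09, 14.68, 14.95 and 15.28 on HC. Its difference was 0.03 (SE 0.17, limma with an adjusted P of 0.99953), and cow 4 was the highest on both diets. GAPDH, the reference gene of the study, differed by -0.04 (SE 0.19), with an SD over the 8 arrays of 0.240. The plot of these signals shows lines of single cows crossing in every panel.

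**Figure D1:**
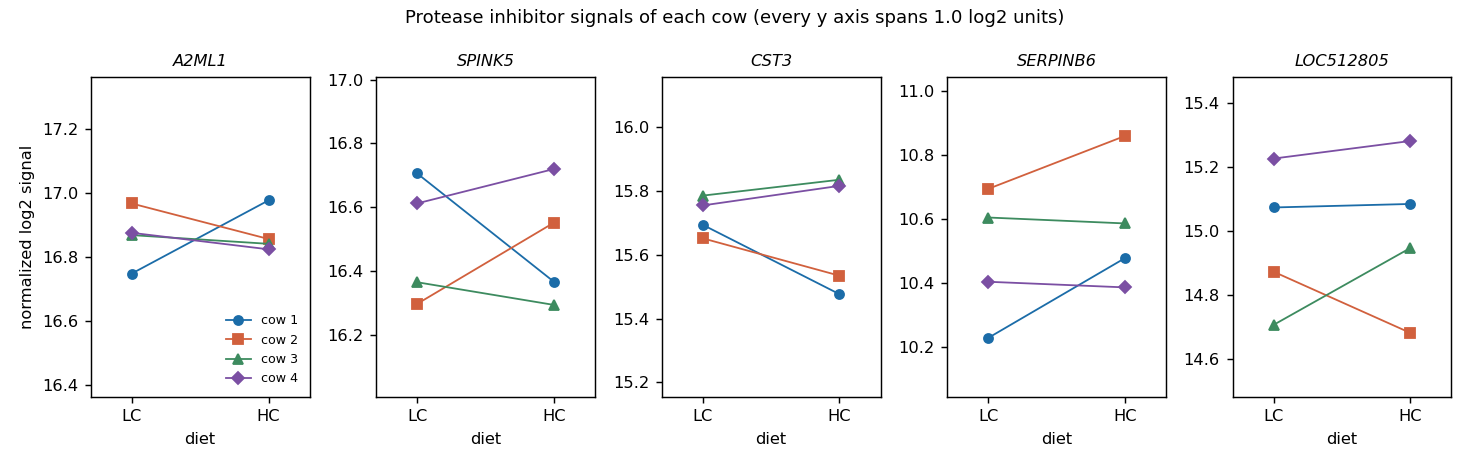
Normalized log2 signal (y axis) of A2ML1, SPINK5, CST3, SERPINB6 and LOC512805 on the LC and HC diets (x axis), with a line joining the 2 arrays of each of the 4 cows; every panel spans the same number of log2 units. No gene moves the same way in all 4 cows: A2ML1 goes from 16.75 to 16.98 in cow 1 and is lower on HC in the other cows, and CST3 is lower on HC in cows 1 and 2 and higher in cows 3 and 4.

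Period was the other term of the design, and 828 probes, or 3.86%, met both thresholds for it. Of the members 0 of 4 did. Period 2 minus period 1 was 0.05 for A2ML1, -0.03 for SPINK5, -0.11 for CST3 and 0.11 for SERPINB6. Their adjusted P for period were 0.892, 0.966, 0.659 and 0.839 in this order (limma). Within cows, CST3 was lower in period 2 in 4 of 4, with differences of -0.22, -0.12, -0.05 and -0.06 in cows 1 to 4, as were 12.4% of the probes above background. SERPINB6 was higher in period 2 in 4 of 4, by 0.25, 0.17, 0.02 and 0.02, as were 13.3% of these probes. The exact permutation P within cows was 0.125 for each, the smallest that 4 cows allow, and with cow as a fixed block the adjusted P were 0.567 and 0.560 (limma). An ordinary fit without moderation of the variance gave CST3 an unadjusted P of 0.00516 for period and of 0.0498 for diet, with changes under 1.5-fold. Within period 1, where the HC arrays came from cows 3 and 4 and the LC arrays from cows 1 and 2, HC minus LC was -0.03 for A2ML1, 0.01 for SPINK5, 0.15 for CST3 and 0.03 for SERPINB6. Within period 2, with the cows exchanged, it was 0.04, -0.03, -0.26 and 0.16 in the same order. Each of these values compares 2 arrays with 2 and was not tested by itself. Only CST3 moved by more than its spread within a diet between the pooled and the within-period values.

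**Figure D2:**
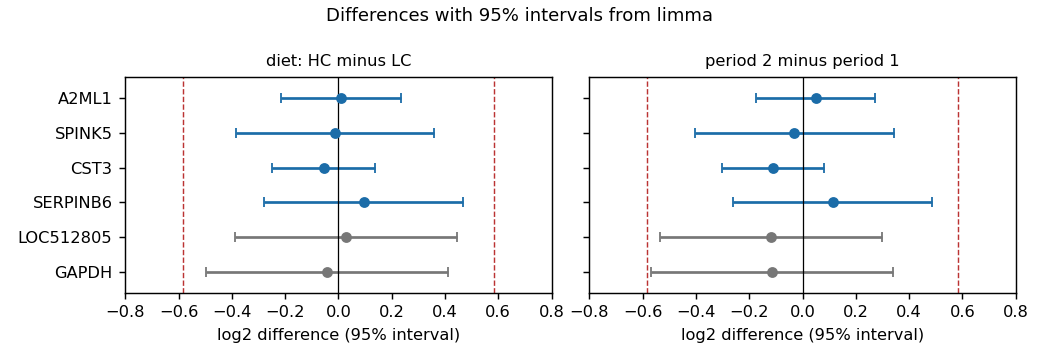
Log2 differences (x axis) for diet and for period of the 4 members (blue) and of LOC512805 and GAPDH (grey), with 95% intervals from limma; dashed lines mark a 1.5-fold change. All intervals include 0 and none reaches the dashed lines, and the narrowest for diet are those of CST3 (-0.25 to 0.14) and A2ML1 (-0.21 to 0.23).

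The opposite signs of CST3 within the periods come with a difference between the pairs of cows. In cows 1 and 2 its 4 signals lay between 15.48 and 15.69, and in cows 3 and 4 between 15.75 and 15.83. Without a share of all probes beside them, these ranges are a description only. Cows 1 and 2 minus cows 3 and 4 was -0.21 (SE 0.08), with an adjusted P of 0.468 (limma). Unadjusted it was 0.0374, and 10.2% of all probes had an unadjusted P under 0.05 in the same contrast. With the means of the 4 cows as the samples, the exact permutation P was 0.333, the smallest that 2 cows against 2 allow, and limma gave an adjusted P of 0.820. In this crossover the contrast between the cow pairs, the order in which the diets were fed and the interaction of diet and period are 1 and the same and cannot be told apart. For A2ML1, SPINK5 and SERPINB6 the contrast was 0.03, -0.02 and 0.07, each with an adjusted P of at least 0.893 (limma).

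The cow means of these inhibitors lay within 1.5-fold of each other, as did those of GAPDH (1.33-fold). The mean of the highest cow was 1.04-fold that of the lowest for A2ML1, 1.26-fold for SPINK5, 1.17-fold for CST3, 1.34-fold for SERPINB6 and 1.39-fold for LOC512805. By contrast CSTA, the other cytosolic cystatin of epidermis and a gene singled out after its values were seen, differed by 4.38-fold. Its log2 signal was 9.12 on LC and 9.05 on HC in cow 4, and between 6.70 and 7.66 on the 6 arrays of the other cows. The position of cow 4 was thus kept over both diets and both periods, while HC minus LC over the 4 cows was 0.01 (SE 0.48).

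A2ML1 was the steadiest member, but by how much depended on the scaling. After quantile normalization its SD over the 8 arrays was 0.0746, and 97.9% of the 16030 probes above background on all arrays had a larger one. With each array scaled to its 75th percentile, an alternative added after the data were seen for this measure, its SD was 0.147, and 74.6% of these probes had a larger one. Bright probes as a class had a small spread after quantile normalization: the 254 probes with a mean log2 signal over 15 had a median SD of 0.131, of which 204 exceeded that of A2ML1. The SD of SPINK5 was 0.179, that of CST3 0.131 and that of SERPINB6 0.198, and these moved to 0.166, 0.175 and 0.196 under the other scaling.

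**Figure D3:**
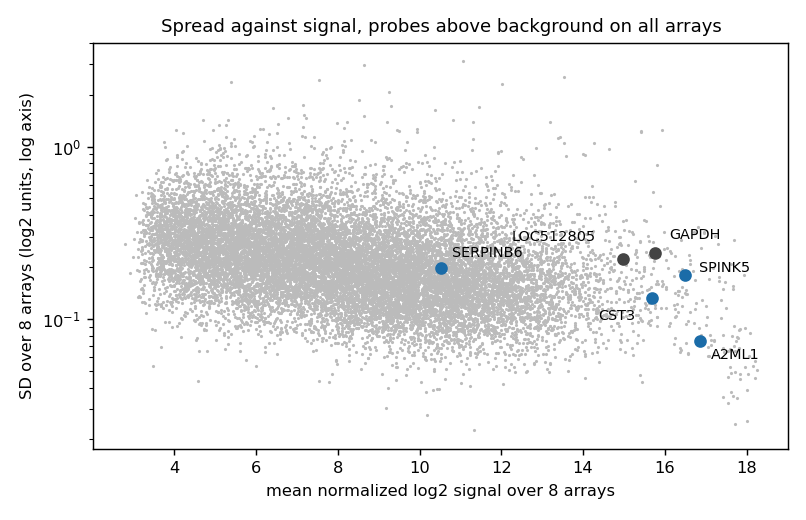
SD over the 8 arrays in log2 units (y axis, log scale) against the mean normalized log2 signal (x axis) of the probes above background on all arrays (grey), with the members in blue and LOC512805 and GAPDH in dark grey. A2ML1, with an SD of 0.0746, lies in the lower part of the cloud among the bright probes, where the spread of many probes narrows. SERPINB6, at 0.198, lies in the middle of the cloud.

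Each probe had 2 spots on every array, which shows how far the readings can be trusted. The SD between the spots was 0.0495 for A2ML1, 0.0579 for CST3 and 0.0965 for SERPINB6 in log2 units, against a median of 0.100 over the probes. SPINK5 had a spot SD of 0.183, and its spots differed by up to 1.38-fold. The spot SD includes any steady offset between the 2 spots, so it cannot be set against the SD of SPINK5 within a diet, 0.193. The first spot was the brighter on 8 of 8 arrays for SPINK5, CST3 and LOC512805, on 7 for A2ML1 and on 0 for SERPINB6. The diet difference of SPINK5 was -0.05 from the first spot alone and 0.03 from the second, so its sign depended on the spot. The readings of A2ML1, SPINK5, CST3 and LOC512805 came on all 8 arrays from the scan at low gain, which the software scales up for bright spots, and those of SERPINB6 on none. Between 1.58% and 2.20% of an array's spots were of this kind. No spot of these probes was saturated, and the saturation value lay at least 4.46-fold above the signal of A2ML1.

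The genes whose pattern over the 8 arrays was most like that of a member were sought among the 6468 genes above background on all arrays, by Pearson r of the log2 signals. With 8 arrays from 4 cows and so many genes, high values of r occur for any gene, and they are given as a description with no test. For A2ML1 they were ADGRG7, an adhesion receptor of epithelia (r = 0.903), MRPS17, a protein of the mitochondrial ribosome (r = 0.872), SAMHD1, a nucleotide hydrolase that restricts viruses (r = 0.854), MAOB, a monoamine oxidase (r = 0.852), and IL17F, a cytokine of T cells (r = 0.845). SPINK5 was closest to PTPRF, a receptor phosphatase (r = 0.952), and BRCC3, a deubiquitinase (r = 0.945). CST3 was closest to RGS9BP, which anchors a regulator of G proteins (r = 0.960), and PPARD, a nuclear receptor for fatty acids (r = 0.950). SERPINB6 was closest to FIG4, a lipid phosphatase (r = 0.960), and PTI, the pancreatic trypsin inhibitor of cattle (r = 0.949). Among the members themselves r ran from -0.68 between A2ML1 and SPINK5 to 0.45 between A2ML1 and SERPINB6.

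Beyond the members, 17 of 37 other protease inhibitors were matched to a probe by RefSeq accession, and 14 of these were above background on all 8 arrays. Of the 17, 0 met both thresholds for diet, 0 for period and 0 had an unadjusted P under 0.05 for diet (limma). Over the 14 the median of HC minus LC was 0.02, with a range from -0.08 to 0.29, and 8 were higher on HC, where the median over all probes above background was -0.00. The 3 with the largest differences were serpins of plasma and matrix. SERPINF2, the inhibitor of plasmin, was higher by 0.29 (SE 0.30, exact permutation P = 0.371), and its diets overlapped, with cows 1 and 4 higher on HC and cows 2 and 3 lower. SERPING1, the inhibitor of the complement protease C1, had 9.90, 9.36, 9.80 and 9.69 on LC and 10.15, 9.75, 9.93 and 9.82 on HC, a difference of 0.23 (SE 0.16, exact permutation P = 0.20) with HC the higher in 4 of 4 cows. SERPINF1, a serpin without inhibitory activity that restrains vessel growth, differed by 0.15 (SE 0.13, exact permutation P = 0.486), also with HC higher in 4 of 4 cows. The exact permutation P within cows was 0.125 for SERPING1 and for SERPINF1, the smallest that 4 cows allow. SPINT1 and SPINT2, inhibitors of the membrane protease matriptase, and CAST, the inhibitor of the calpains, named after their values were seen, differed by 0.05, -0.08 and -0.06.

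The proteases that such inhibitors hold back were examined next. Of 46 candidates 25 were matched to a probe by RefSeq accession, and 23 of these were above background on all 8 arrays. Only 8297 of the 21475 probes were named by this rule, so other candidates may be on the array without being seen here. The kallikreins best known as targets of LEKTI, KLK5, KLK7 and KLK14, were not matched to a probe, and of the 11 kallikreins listed 4 were, KLK6, KLK8, KLK10 and KLK12. PLAUR, the receptor of the protease PLAU, and CAPNS1, the regulatory subunit of calpains, are among the 25 and are not proteases themselves. Of the 25 genes 1 met both thresholds for diet, TMPRSS4, beside the 0.494% of all probes that did so with a higher signal on HC. TMPRSS4 was also the only 1 of the 25 with an unadjusted P under 0.05 for diet (limma). Over all probes above background the median of HC minus LC was -0.0002. The median over the 23 was 0.10, with a range from -0.17 to 0.76, and 19 of them were higher on HC. Markers of other cells lay on the same side: the 11 leukocyte markers above background had a median of 0.11, with 8 higher on HC, and the 12 stroma and muscle markers 0.07, with 10 higher, while the 16 squamous markers had 0.02, with 9 higher. The part of these cells in the proteases' values was not tested. HC was the higher in all 4 cows for 5 of the 23, or 21.7%, namely TMPRSS4, KLK10, KLK12, ST14 and CTSB, against 6.46% of all probes above background. By the same count it was 2 of 14 other inhibitors (14.3%), 2 of 16 squamous markers (12.5%), 1 of 11 leukocyte markers (9.09%), 0 of 12 stroma and muscle markers and 0 of the 4 members. No difference between these shares was tested. This count was made after the values were seen, and the lists were chosen with earlier results of these data known.

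TMPRSS4 is a serine protease anchored in the membranes of epithelial cells. Its log2 signal was 7.48, 7.43, 6.80 and 7.73 on LC and 8.06, 8.24, 7.65 and 8.03 on HC in cows 1 to 4. The lowest HC array, of cow 3, lay below the highest LC array, of cow 4, and HC was higher by 1.23-fold to 1.80-fold within the cows. HC minus LC was 0.64 (SE 0.22), a ratio of 1.55 (limma P = 0.0256, adjusted P = 0.99953, exact permutation P = 0.0571, and 0.125 within cows, the smallest that 4 cows allow). It was 0.38 within period 1 and 0.89 within period 2. In this unblocked model the call did not hold when the array of cow 1, 2 or 3 on LC or of cow 2 or 4 on HC was left out, with differences of 0.65, 0.62, 0.40, 0.59 and 0.54. With cow as a block TMPRSS4 was past both thresholds (limma, unadjusted P = 0.0063 fixed and 0.0054 random), as were 1.29% of all probes in the fixed fit. The fixed-block call did not hold without cow 2 or without cow 3. Over 21 settings the call held in 14, and the sign was reversed in 0.

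KLK10, a secreted kallikrein of squamous epithelium, showed the largest difference of the list and by far the widest spread between cows. Its log2 signal was 9.14, 8.47, 5.31 and 9.61 on LC and 10.33, 9.04, 6.02 and 10.17 on HC. Cow 3 stood far below the other cows on both diets, and the mean of the highest cow was 18.7-fold that of the lowest. Within each cow HC was the higher, by 1.47-fold to 2.27-fold. HC minus LC was 0.76, with an SE of 1.23 in the model of diet, period and their interaction, which has no term for the cow (limma P = 0.560, exact permutation P = 0.514). With cow as a fixed block its SE was 0.134 (limma P = 0.00365, adjusted P = 0.843; exact permutation within cows P = 0.125, the smallest that 4 cows allow). The blocked fit thus put KLK10 past both thresholds, as it did 1.29% of all probes, and kept it there without any 1 of the cows, with differences of 0.61 to 0.91. With cow as a random block it was not past them (SE 0.84, adjusted P = 0.874 by limma). That fit took 1 correlation between the arrays of a cow, 0.384, for all probes, and none was fitted for KLK10 itself. The cow means of KLK10 spanned 4.23 log2 units, against a mean difference of 0.76 between the diets within cows. The summed signal of the squamous markers was also lowest in cow 3, and TGM3, a transglutaminase of late cornification named after its values were seen, had 14.58 on LC and 14.74 on HC in cow 3 against 15.62 to 16.69 in the other cows. Other markers of the list ran the other way, as KRT15, with 17.04 and 16.95, and ITGB4, with 7.13 and 7.56, were highest in cow 3 on both diets. The part of these differences in the KLK10 result was not tested. The unblocked difference turned to -0.32 when the LC array of cow 3 was left out and to -0.28 when the HC array of cow 4 was, and in both cases the cows were no longer balanced between the diets.

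KLK12, another secreted kallikrein, had a higher signal on HC in each of the cows, by 1.07-fold to 1.51-fold. Its difference was 0.35 (SE 0.29, exact permutation P = 0.457), and with cow as a fixed block limma gave an adjusted P of 0.843. ST14, which encodes matriptase, was higher on HC by 1.13-fold to 1.24-fold within the cows, a difference of 0.24 (SE 0.11, exact permutation P = 0.0857). CTSB, a cysteine cathepsin that cystatin C inhibits, differed by 0.17 (SE 0.09, exact permutation P = 0.0857). The permutation P given here for KLK12, ST14 and CTSB did not use the pairing of arrays by cow. For each of these genes the exact permutation P within cows was 0.125, the smallest that this number of cows allows. ST14 and CTSB were named after their values were seen.

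**Figure D4:**
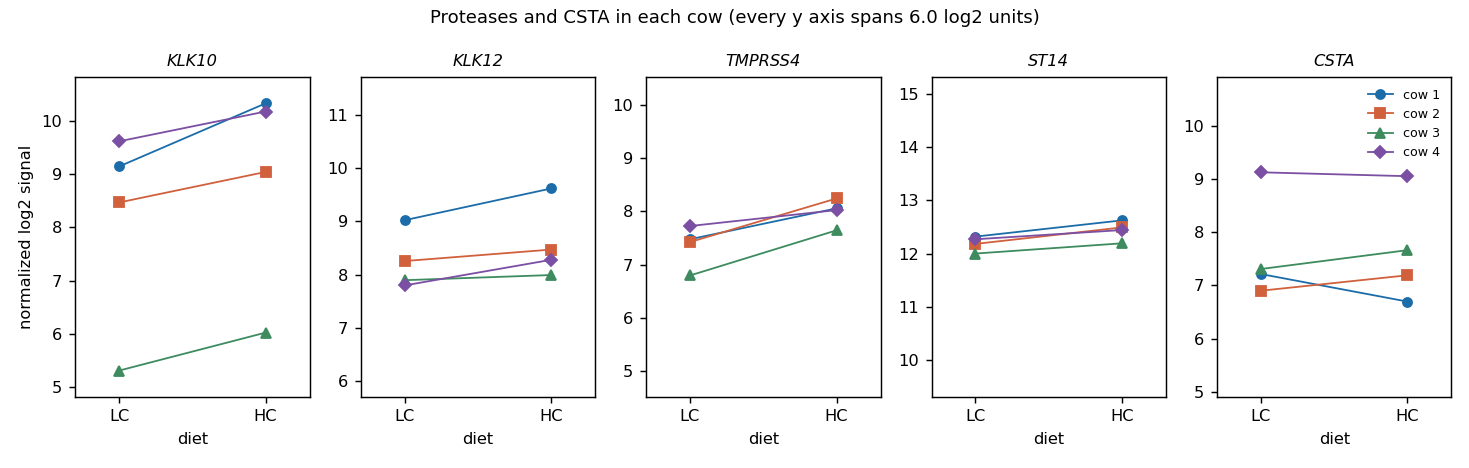
Normalized log2 signal (y axis) of the proteases KLK10, KLK12, TMPRSS4 and ST14 and of the inhibitor CSTA on the LC and HC diets (x axis), with a line for each of the 4 cows; every panel spans the same number of log2 units. The 4 proteases are higher on HC in every cow, KLK10 is far lower in cow 3 (5.31 and 6.02) than in the others, and CSTA is higher in cow 4 (9.12 and 9.05).

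**Figure D5:**
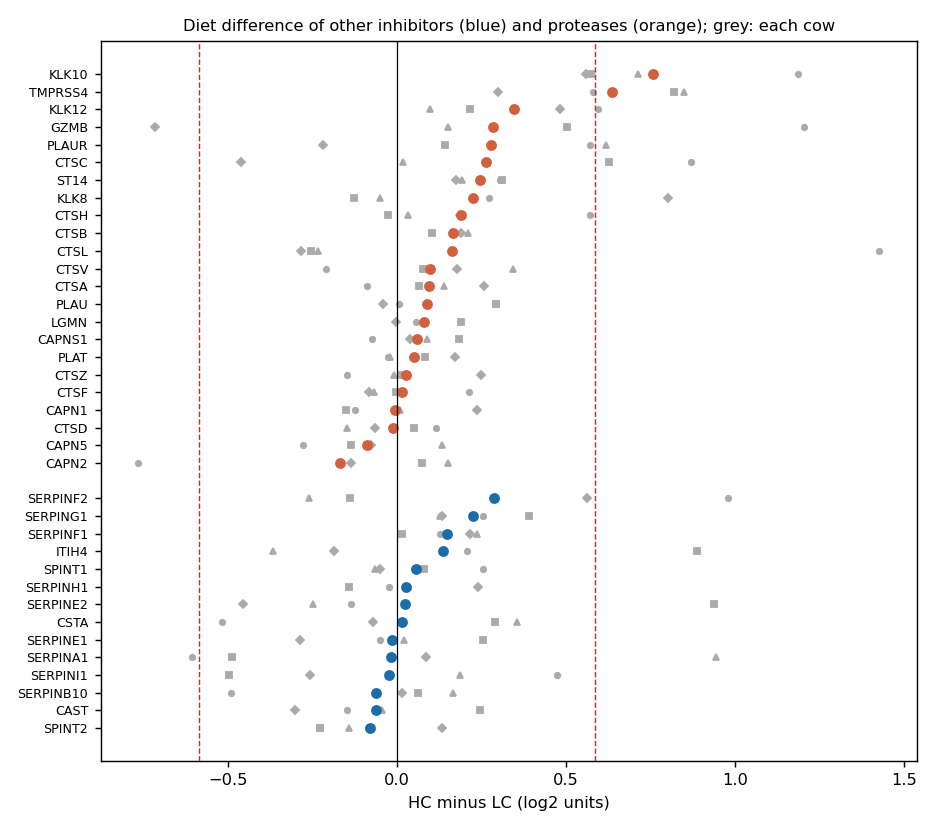
HC minus LC in log2 units (x axis) of each gene above background on all 8 arrays (y axis), for 14 other protease inhibitors (blue) and 23 genes of the protease list (orange). The 4 cows are in grey, and dashed lines mark a 1.5-fold change. The inhibitors centre on 0.02. The genes of the protease list, which include the non-proteases PLAUR and CAPNS1, lie mostly to the right of 0, with KLK10 at 0.76 and TMPRSS4 at 0.64 past the dashed line.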

How the data were processed

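Total RNA of rumen papillae was labelled with Cy3 and hybridised to 8 single-colour Agilent whole-genome bovine arrays, 4 per diet. For each array the authors deposited the scanner output of Feature Extraction 10.7.3.1, whose intensity per spot is background-subtracted and not normalized between arrays. A deposited table of log2 values, quantile-normalized by the authors, was used as an alternative. No column of other samples was present. Depth here is signal over background, and the number of arrays limits the precision.

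Outlier spots were left out, log2 intensities were quantile-normalized in R 4.3.3 (limma 3.58.1), and a probe's 2 spots were averaged (6 for 10 probes). No filter on dim probes was applied. A probe was above background on an array where the software marked all of its spots so. The limma model had terms for diet, period and their interaction (4 residual and 2.26 prior degrees of freedom). The code was tested on simulated data. Figures were drawn with matplotlib 3.10.9. Arrays of the same cow were taken as pairs because the labels name the cow. Over 16030 probes the deviations of a cow's arrays from the diet means had an r of 0.285, 0.298, 0.467 and 0.113 in cows 1 to 4, against -0.237 to 0.185 between cows.

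Probes were named through RefSeq accessions in the ARS-UCD2.0 gene table (8297 probes, 7788 genes). No positions or sequences are given, since the array's annotation is of another build and no sequence was at hand. Genes were named by rule: the members, list genes past both thresholds or among the 3 largest differences of a list, the genes most like each member, and GAPDH. The members and lists were chosen with earlier results of these data known. Markers and genes outside the rule are named as such. Alternatives were another scaling, background correction, filter, moderation and model, cow as a block, single spots, the deposited table, and leaving out each array.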

Additional observations from a re-analysis of the deposited data

Results flagged for a closer look

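CST3 differed in its diet effect between the periods, with HC minus LC of 0.15 in period 1 and -0.26 in period 2. The interaction had an unadjusted P of 0.0374 in limma and an adjusted P of 0.468, and the exact permutation P over the cow means was 0.333. HC minus LC of CST3 was also below 0 in cows 1 and 2 and above 0 in cows 3 and 4, and that of SERPINB6 above 0 in cows 1 and 2 and -0.02 in each of cows 3 and 4. In this crossover such a pattern is the period effect, whose unadjusted P in limma was 0.207 for CST3 and 0.490 for SERPINB6. SERPINF1 had a diet effect of 0.57 in period 1 and -0.28 in period 2, although HC was the higher in each cow. Its interaction had an unadjusted P of 0.0164 in limma, an adjusted P of 0.415 and an exact permutation P of 0.333. KLK12 had a diet effect of -0.50 in period 1 and 1.20 in period 2, also with HC the higher in each cow, and its interaction had an unadjusted P of 0.0259 in limma, an adjusted P of 0.445 and an exact permutation P of 0.333. For CST3, SERPINF1 and KLK12 the interaction cannot be told apart from a lasting difference between cows 1 and 2 and cows 3 and 4, and 10.2% of all probes had an unadjusted P under 0.05 for it.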

How the results depend on the processing

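The 4 members met both thresholds under none of the settings tried, for diet or for period, but the signs of the small log2 differences of A2ML1, SPINK5 and SERPINB6 were not stable. CST3 kept its sign for diet and for period under all of these settings, but not in period 1 taken alone (0.15). For diet, A2ML1 became -0.019 and LOC512805 -0.0064 with the 75th percentile scaling, and A2ML1 became -0.049 for period. SPINK5 became 0.026 with normexp (on median spot signals, since the files used hold no mean signal), 0.027 in the deposited table and 0.030 from the second spot. Leaving out single arrays gave diet differences of -0.047 to 0.064 for A2ML1, -0.12 to 0.095 for SPINK5, -0.021 to 0.21 for SERPINB6, -0.10 to 0.16 for LOC512805 and -0.32 to 1.83 for KLK10. For period it gave -0.0060 to 0.11 for A2ML1, -0.14 to 0.075 for SPINK5 and -0.0034 to 0.23 for SERPINB6.

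The 198 probes called for diet became 8 with normexp, 415 in the deposited table, 75 with the filter on dim probes, 105 without moderation and 248 to 402 without single arrays. The 828 for period became 33 with normexp and 379 with the filter. The 1 protease became 0 with normexp, 0 without moderation, 0 to 1 without single arrays (KLK12, at 0.63, in place of TMPRSS4 without the HC array of cow 2) and 2, KLK10 and TMPRSS4, with cow as a fixed block. TMPRSS4 was 0.40 with normexp, and in the blocked fit 0.58 without cow 2 and 0.50 without cow 3, each under 1.5-fold. The deposited table gave 1 inhibitor, SPINK1, which was above background on no array. Pairing by cow changed no call of a member. These causes were not tested. Averaging all probes of a member gave no other value, as each had 1. The number of arrays limits the precision, which the intervals of the members give.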
